A study of Mus musculus with 12 samples.

Results

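The comparison of Act + FST with FST asks which genes of bone marrow-derived macrophages (BMDMs) still differ with activin A when its antagonist is present. Both groups received 250 ng/ml FST288, so activin A at 50 ng/ml was the only agent that differed between them. Genes whose normalized count averaged 5 or more across the 12 libraries of the series were included, which left 14318 of the 18376 genes listed. The 3 Act + FST libraries were compared with the 3 FST libraries, with libraries of the same replicate number treated as a pair.

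All BMDMs were grown from bone marrow progenitors of adult C57BL/6J wild-type mice with 50 ng/ml M-CSF, the growth factor that drives macrophage differentiation, and were harvested at day 6. CTRL cells received no further agent, Act cells received 50 ng/ml activin A, FST cells received 250 ng/ml FST288, and Act + FST cells received both at the same concentrations. The sources used here do not say whether the 3 libraries of a group came from separate mice or cultures, so p-values measure only the spread between these libraries.

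Activin A is a secreted member of the TGF-β family. It binds a type II activin receptor, which recruits and activates a type I receptor, and the type I receptor phosphorylates SMAD2 and SMAD3, which enter the nucleus with SMAD4 and alter transcription. Follistatin wraps around activin and covers its receptor-binding surfaces, and FST288 is the isoform that also binds cell-surface heparan sulfate. In macrophages activin A is known to alter genes of matrix turnover, chemotaxis and inflammation.

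Total normalized counts of the 6 libraries lay between 5676221 and 5824638, but these values were already scaled and do not show sequencing depth. The 9 macrophage markers Adgre1, Cd68, Csf1r, Itgam, Mertk, Fcgr1, Lyz2, Cd14 and Spi1 were all expressed, and their summed level was between 12128 and 13344 in Act + FST and between 12095 and 13367 in FST. Replicate 3 of Act + FST stood apart, with a summed level of 24 cell cycle genes of 10533 against 6213 and 5389 in the other Act + FST libraries and between 5909 and 6842 in FST. The number of genes called, the median change of the genes that responded in Act and the AP-1, cell cycle and sterol gene lists are therefore also given without it. The log2 fold changes of single genes and of the other lists are not.

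At an adjusted p of at most 0.05 (limma on log2(normalized count + 1), Benjamini-Hochberg adjustment over all 14318 genes), 31 genes differed between Act + FST and FST, which is 0.217% of the genes tested. Of these, 12 were higher (0.0838%) and 19 were lower (0.133%) in Act + FST. The matrix metalloproteinase Mmp14 rose the most and the ubiquitin ligase adaptor Spsb4 fell the most, and these 2 genes (0.014%) were the only ones that also passed the 2-fold change used to define DEGs. The other changes were small. The size of the log2 fold change ran from 0.19 to 1.17 with a median of 0.46, and 21 of the 31 genes changed by less than 1.5-fold. For scale, the same test called 31.5% of the genes in Act versus CTRL, 16.3% as higher and 15.2% as lower.

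These calls rested on the pairing of libraries. Without the replicate number in the model, 0 genes were called with limma, the lowest adjusted p was 0.228, and 502 genes had an unadjusted p under 0.05, against 1169 genes (8.16%) with it. In this balanced design, leaving out the replicate number does not alter the log2 fold changes, so the 31 genes could not change direction in that fit. The same holds without the Act libraries or with the 6 libraries alone. In the remaining alternatives all 31 kept their direction. All 31 also moved the same way in 3 of 3 pairs, which a paired fit favours in the genes it calls. In 23 of the 31 genes the values of the 2 groups did not overlap, where 6.54% of all tested genes did not (3.17% higher and 3.37% lower in Act + FST). The calls rest on these same values, which favours groups without overlap among the called genes. How many genes were called also varied with the libraries: leaving out 1 of the 6 libraries at a time left between 2 and 24 genes, the lowest without FST replicate 2, and without Act + FST replicate 3 it was 24.

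Mmp14 encodes a membrane-anchored collagenase that also activates the secreted gelatinase MMP2. Its normalized counts were 353, 411 and 311 in Act + FST and 165, 185 and 128 in FST. Every Act + FST library therefore lay above every FST library, with group means of 358 ± 50.2 and 159 ± 28.9 (SD, n = 3). The log2 fold change was 1.17 ± 0.11 (SE, adjusted p = 0.00062), and it was 1.09, 1.15 and 1.27 in the 3 pairs. Mmp14 had the lowest p of all genes and was called in 17 of 18 alternative fits, all but the fit without pairs, with log2 fold changes between 1.11 and 1.24. Per kilobase of exon, the mean level was 60.1 in Act + FST and 26.7 in FST. The counts were 207, 341 and 193 in CTRL and 1290, 1347 and 1288 in Act, a log2 fold change of 2.45. The activin A effect was smaller with FST288 than without it by 1.28 on the log2 scale (interaction, adjusted p = 6.5e-05).

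Mmp12, the macrophage elastase, went the other way. Its counts were 826, 702 and 608 in Act + FST and 1063, 974 and 969 in FST, again without overlap. It fell by 0.50 on the log2 scale (SE 0.05, adjusted p = 0.0023), and it fell by 1.36 in Act versus CTRL. It was called in 16 of 18 alternative fits, including each of the 6 that left out 1 library. Mmp14 lies at chr14:54431612-54445364 on the plus strand and Mmp12 at chr9:7344381-7369499 on the plus strand (mm10). Of the 11 other matrix metalloproteinase genes tested, 0 were called with limma and 3 had an unadjusted p under 0.05. Mmp2, which Mmp14 activates, had counts of 35, 33 and 24 in Act + FST and 13, 22 and 14 in FST, higher without overlap but with an adjusted p of 0.11, beside a log2 fold change of 3.43 in Act versus CTRL. The CTRL counts of Mmp2 were 23, 41 and 32. Mmp9 had 215, 256 and 96 in Act + FST and 233, 245 and 136 in FST, so its groups overlapped.

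**Figure D1:**
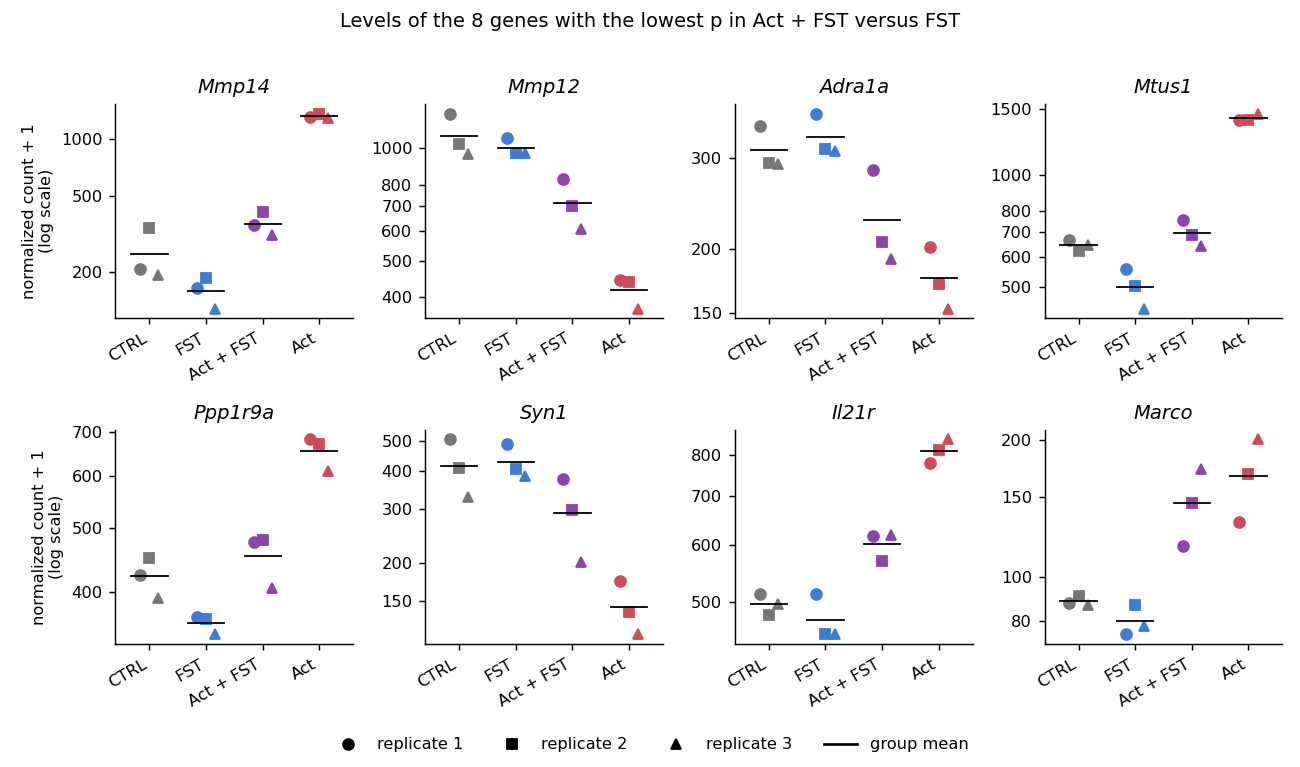
Normalized counts plus 1 (log scale, y axis) of the 8 genes with the lowest p in Act + FST versus FST, in the 4 groups (x axis), with 1 point per library and a line at the group mean. In each of the 8 genes the Act + FST mean lies between the CTRL and Act means. For Mmp14 the Act + FST libraries (311 to 411) lie above the FST libraries (128 to 185) and below the Act libraries (1288 to 1347).

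The bases just upstream of these genes were read because activin-activated SMAD3 and SMAD4 bind short CAGAC elements. RefSeq starts (GRCm38.p6) within 1000 bases of the deposited gene start were found for 22 of the 31 called genes and 9330 of all tested genes, and the 250 bases upstream were searched on both strands. CAGAC was in 10 of the 22 windows (45.5%) and in 40.3% of all windows. The palindrome GTCTAGAC, which holds CAGAC in neither strand, was in 0 of 22 and in 0.182% of all windows. The AP-1 motif TGANTCA was in 2 of 22 (9.09%) and in 4.2% of all windows. The windows of the 2 genes called in the most alternative fits, Mmp14 (chr14:54431348-54431597, plus strand) and Mmp12 (chr9:7344147-7344396, plus strand), are shown because they hold none of the 3 motifs. Those of Il21r (chr7:125603179-125603428, plus strand) and Ppp1r9a (chr6:4902725-4902974, plus strand) are shown because each holds 2 CAGAC elements, in capitals and written as the reverse complement where they lie on the minus strand, and a match or its absence says nothing of SMAD binding.
Mmp14: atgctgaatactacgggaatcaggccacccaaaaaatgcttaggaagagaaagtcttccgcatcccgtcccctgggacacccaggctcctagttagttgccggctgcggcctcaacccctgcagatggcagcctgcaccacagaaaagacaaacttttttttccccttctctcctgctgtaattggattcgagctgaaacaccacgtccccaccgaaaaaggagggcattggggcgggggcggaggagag
Mmp12: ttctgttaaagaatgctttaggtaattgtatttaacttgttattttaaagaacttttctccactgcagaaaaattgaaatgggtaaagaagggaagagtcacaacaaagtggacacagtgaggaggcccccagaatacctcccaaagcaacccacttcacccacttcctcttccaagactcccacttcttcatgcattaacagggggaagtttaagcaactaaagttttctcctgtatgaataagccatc
Il21r: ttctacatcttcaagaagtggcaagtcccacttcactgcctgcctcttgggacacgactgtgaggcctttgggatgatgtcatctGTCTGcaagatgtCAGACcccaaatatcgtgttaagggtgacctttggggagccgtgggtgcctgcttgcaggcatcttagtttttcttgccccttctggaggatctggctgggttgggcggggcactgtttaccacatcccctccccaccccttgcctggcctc
Ppp1r9a: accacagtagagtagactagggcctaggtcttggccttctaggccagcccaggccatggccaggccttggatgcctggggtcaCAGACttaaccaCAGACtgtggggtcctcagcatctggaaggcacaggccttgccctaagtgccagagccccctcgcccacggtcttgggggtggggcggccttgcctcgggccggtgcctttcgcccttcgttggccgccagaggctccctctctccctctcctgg

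The other 11 genes that rose are given by what they encode. Marco, a scavenger receptor for bacteria and particles, had counts of 116, 145 and 172 in Act + FST and 74, 86 and 77 in FST, with a log2 fold change of 0.85 (SE 0.12, adjusted p = 0.013). Its change in Act versus CTRL was of about the same size, 0.90, and the difference between both activin A effects was 0.05 ± 0.17 (SE, adjusted p = 0.89). Gja1, a connexin of gap junctions, had 80, 59 and 58 in Act + FST and 40, 37 and 31 in FST (log2 fold change 0.84, adjusted p = 0.023). Marco and Gja1 thus differed by less than 2-fold without overlap between the groups. Gja1 was called in 0 of the 6 fits that left out 1 library and Marco in 3.

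Il21r, a cytokine receptor subunit, had counts of 615, 568 and 618 in Act + FST and 512, 450 and 450 in FST, a log2 fold change of 0.35 (adjusted p = 0.012). Fkbp5, a co-chaperone of the glucocorticoid receptor, had 135, 145 and 187 in Act + FST and 99, 86 and 117 in FST (0.62, adjusted p = 0.041). In both genes each Act + FST library was above each FST library. Other genes that rose were the microtubule-associated Mtus1 (0.48), the actin regulators Abi3 (0.41) and Ppp1r9a (0.34), the cytolinker Dst (0.40) and the capping protein regulator Carmil1 (0.46). Mtus1 had 756, 688 and 641 in Act + FST and 557, 502 and 435 in FST, and was called in 15 of 18 alternative fits. Ppp1r9a had 476, 479 and 405 in Act + FST and 366, 363 and 344 in FST. Abi3 had 355, 361 and 306 in Act + FST and 281, 260 and 226 in FST. The groups did not overlap in these 3 genes. In Dst and Carmil1 they overlapped, and the change was seen only within pairs, as it was for F13a1 (0.34), the A chain of coagulation factor XIII. The remaining gene, the zinc finger gene Zfp950, rose by 0.23. Of the 6 fits that left out 1 library, Mtus1 and Ppp1r9a were called in 5, Il21r in 4 and Abi3 in 2. Fkbp5, Dst, Carmil1 and F13a1 were called in 1, and Zfp950 in 0. Dst, Carmil1 and F13a1 are outside the rule for named genes and were chosen after their values were seen.

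The strand setting of the counting was not given in the sources used here, and reads of a gene and of an overlapping gene on the opposite strand may then not be told apart. Of the exonic bases of Abi3, 75.8% overlap Zfp652 on the opposite strand, and of those of Mtus1, 9.98% overlap B430010I23Rik. For Spsb4 the share was 14.5%, with Gm16010.

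Among the 19 genes that fell, Spsb4 was the only DEG. Its counts were low, at 26, 16 and 28 in Act + FST and 59, 38 and 53 in FST, with a log2 fold change of -1.08 ± 0.18 (SE, adjusted p = 0.025). It was called in 1 of the 6 fits that left out 1 library. Spsb4 and the related Spsb1 encode substrate adaptors of ubiquitin ligases. Spsb1, which had risen by 4.10 on the log2 scale in Act versus CTRL, had 35, 29 and 31 in Act + FST and 20, 22 and 19 in FST, higher without overlap but with an adjusted p of 0.34. In CTRL it had 34, 43 and 22.

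The next genes that fell encode secreted, surface or vesicle proteins. F7, coagulation factor VII, had counts of 111, 132 and 103 in Act + FST and 184, 231 and 154 in FST, and fell by 0.70 on the log2 scale (SE 0.10, adjusted p = 0.016). Itgax, which encodes the integrin subunit CD11c, had 379, 283 and 206 in Act + FST and 497, 424 and 437 in FST (log2 fold change -0.68, adjusted p = 0.021). The 2 groups did not overlap in either gene. Adra1a, an adrenergic receptor, had 284, 205 and 190 in Act + FST and 365, 312 and 309 in FST (-0.55, adjusted p = 0.0046). Gabbr2, a subunit of the GABA B receptor, had 39, 28 and 18 in Act + FST and 58, 58 and 46 in FST (-0.96, adjusted p = 0.025). Syn1, the vesicle protein synapsin, fell by 0.59 on the same scale and Smpd3, a neutral sphingomyelinase, by 0.63, both without overlap. Of the 6 fits that left out 1 library, Adra1a and Syn1 were called in 4, Itgax in 3, and F7 and Smpd3 in 1.

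Without FST288, Gabbr2 showed no such change. Its counts were 72, 58 and 54 in Act and 76, 60 and 47 in CTRL, a log2 fold change of 0.02, and the difference between the effects was 0.99 ± 0.23 (SE, interaction adjusted p = 0.0088). Gabbr2 and the cytokine receptor gene Il7r (log2 fold change -0.25) were the 2 called genes that were not called in Act versus CTRL. Gabbr2 was called in 2 of the 6 fits that left out 1 library and Il7r in 1. Itgax also fell to a lower level in Act + FST than in Act, which had 442, 342 and 400, but the difference between its effects did not pass the test (0.20 ± 0.15, adjusted p = 0.43).

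Atp6v0d2, a proton pump subunit needed for macrophage fusion, had counts of 898, 822 and 702 in Act + FST and 1055, 1129 and 957 in FST, and fell by 0.38 on the log2 scale (adjusted p = 0.023). Ak8, an adenylate kinase, had 161, 156 and 152 in Act + FST and 203, 249 and 212 in FST, and fell by 0.49. In both genes every Act + FST library was below every FST library, as in Tspan13, a tetraspanin (-0.34), Sh3bgrl2 (-0.25), Fam129b (-0.19) and Epb41l1, a membrane skeleton gene (-0.19). In 5 other genes the groups overlapped and the fall was within pairs only. These genes and Epb41l1 are outside the rule for named genes and were chosen after their values were seen. The 5 genes were the chromatin protein gene Hmga2 (-0.37), Pianp (-0.36), Il7r, the scaffold gene Tanc1 (-0.39) and Emp2 (-0.53), a membrane protein gene. Atp6v0d2, Ak8 and Hmga2 were called in 2 of the 6 fits that left out 1 library. Sh3bgrl2, Fam129b, Pianp and Emp2 were called in 1, and Tspan13, Epb41l1 and Tanc1 in 0.

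**Figure D2:**
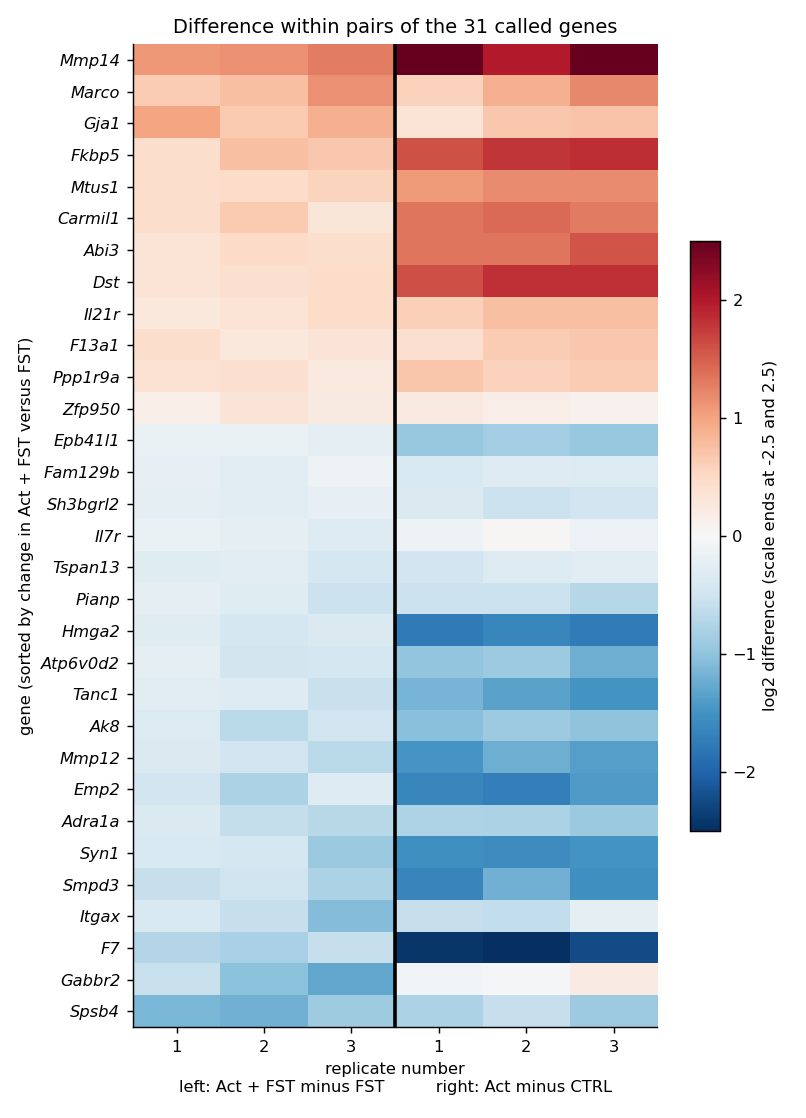
Log2 differences within each replicate number for the 31 called genes (rows, sorted by the change in Act + FST versus FST), with Act + FST minus FST in the left 3 columns and Act minus CTRL in the right 3 columns. Red is higher and blue lower with activin A. The left columns have the same sign in all 3 pairs for each of the 31 genes, and the right columns are mostly of the same color and darker.

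The 31 genes were set beside Act versus CTRL, whose group means use none of the 6 libraries. Both comparisons come from 1 fit and share its estimate of the spread and of the replicate block, so a gene with a small spread is more readily called in both, and the counts that follow are a description. Of the 12 genes that rose, 12 were also called higher in Act, and of the 19 that fell, 17 were also called lower in Act. Of all tested genes, 16.3% and 15.2% were called in these directions. In 14 of the 31 the change in Act was at least 2-fold, which was so for 6.3% of all genes (2.81% higher and 3.49% lower). In 25 of the 31 the change was of the same sign and smaller with FST288 than without it, and the interaction was called in 20 of the 31, where it was called in 16.3% of all genes. The 11 genes without a called interaction included Marco, Gja1, Zfp950, Adra1a, Itgax, Spsb4 and Tspan13, and a p that misses the threshold does not show that the 2 effects were equal.

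The order of the group means was the same in each of the 12 genes that rose: lowest in FST, then CTRL, then Act + FST, and highest in Act. For Mmp14 the FST libraries (128 to 185) were below the CTRL libraries (193 to 341), with a log2 fold change of -0.60 in FST versus CTRL (adjusted p = 0.37). For Mtus1 the CTRL counts were 667, 621 and 644, between those of FST and Act + FST in the mean. Among the 19 genes that fell, the Act + FST mean lay between those of CTRL and Act in 14 and below the Act mean in 5 (Itgax, Gabbr2, Il7r, Spsb4 and Tspan13), and the FST mean was above the CTRL mean in 9. FST versus CTRL had 0 called genes with limma and 700 with an unadjusted p under 0.05. It shares the FST libraries with the comparison described here, so these values are given side by side only.

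**Figure D3:**
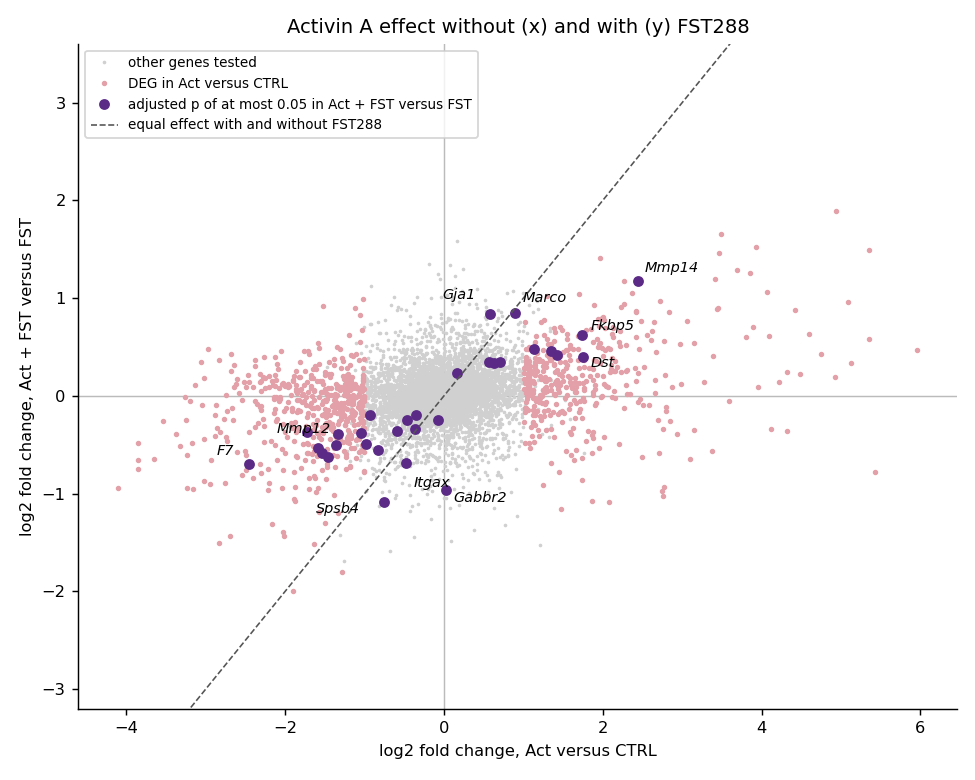
Log2 fold change of each of the 14318 genes in Act versus CTRL (x axis) and in Act + FST versus FST (y axis), with the DEGs of Act versus CTRL in pink, the 31 called genes in purple and a dashed line where both effects are equal. Most purple points lie between the horizontal axis and the dashed line, Marco lies on the line, and Gabbr2 lies near 0 on the x axis at -0.96 on the y axis.

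Act versus CTRL had 902 DEGs, 403 higher and 499 lower, and their values in the other 6 libraries show how the activin A response looked with FST288 present. Of these, 14 (1.55%) were called in the same direction in Act + FST versus FST and 0 in the other direction. With the sign turned so that the direction in Act is positive, the median log2 change of the 902 genes was 0.139, with an interquartile range from -0.08 to 0.41, and the median over single genes of its ratio to the change in Act was 0.082. The medians within pairs were 0.193, 0.263 and 0.102 (SD 0.080, n = 3). Without Act + FST replicate 3 the median was 0.275. Against CTRL, with the sign turned the same way, the median was 0.061 for Act + FST and -0.069 for FST. For the 369 of these genes that averaged 50 or more, the median of Act + FST was 0.122 against FST and 0.004 against CTRL. That of FST against CTRL was -0.101. The CTRL libraries were also used to choose these genes. Of the 902 genes, 605 (67.1%) had the same sign in both comparisons, beside 55.4% of all tested genes and 52.4% of the 9810 genes not called in Act. The interaction was called for 637 of the 902, beside 16.3% of all tested genes, and in these the change was smaller under FST288. That count is a description, since the genes were chosen for a large change in Act versus CTRL, which is a term of the interaction, and some passed the filter on the mean only through their level in 1 of the 4 groups.

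The median change was highest in the genes that responded most strongly to activin A. For the 424 genes with a log2 fold change of size 1 to 1.5 in Act, the median was 0.099, and it was 0.132 for the 234 genes from 1.5 to 2 and 0.184 for the 186 genes from 2 to 3. In pair 3 it was 0.075, 0.042 and 0.150 in these 3 classes, so the order of the first 2 did not hold there. The same-sign shares were 66.5%, 64.5% and 66.7%, and the median ratios to the change in Act were 0.079, 0.079 and 0.077. For the 58 genes at 3 or more the median was 0.501, with 0.496, 0.595 and 0.505 in the 3 pairs. Of these, 48 (82.8%) had the same sign, and the median ratio was 0.143. Against CTRL, the median was 0.123 for Act + FST and -0.173 for FST, the latter with -0.067, -0.540 and -0.134 in the 3 pairs. Some of these genes passed the filter on the mean only through their Act level, such as Col14a1. It had 4, 0 and 3 in Act + FST and 6, 1 and 2 in FST. The values of this class are therefore a description. Of these 58 genes 0 were called with limma and 20 had an unadjusted p under 0.05, beside 8.16% of all tested genes. The 4 groups share 1 estimate of the spread, so scatter among low Act or CTRL libraries widens the standard error. Tox2 changed by -0.28, -0.22 and -0.26 in the 3 pairs, with 28, 58 and 14 in Act. Its standard error was 0.28 and its adjusted p 0.91 with limma. A missing call therefore does not show a missing response. In 13 of the 58 genes (22.4%) the groups did not overlap in the same direction as in Act and in 1 (1.72%) in the other, where 3.17% of all genes did not overlap as higher and 3.37% as lower. Across the 902 genes Pearson's r between both log2 fold changes was 0.445, a description only, since genes are not independent replicates.

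**Figure D4:**
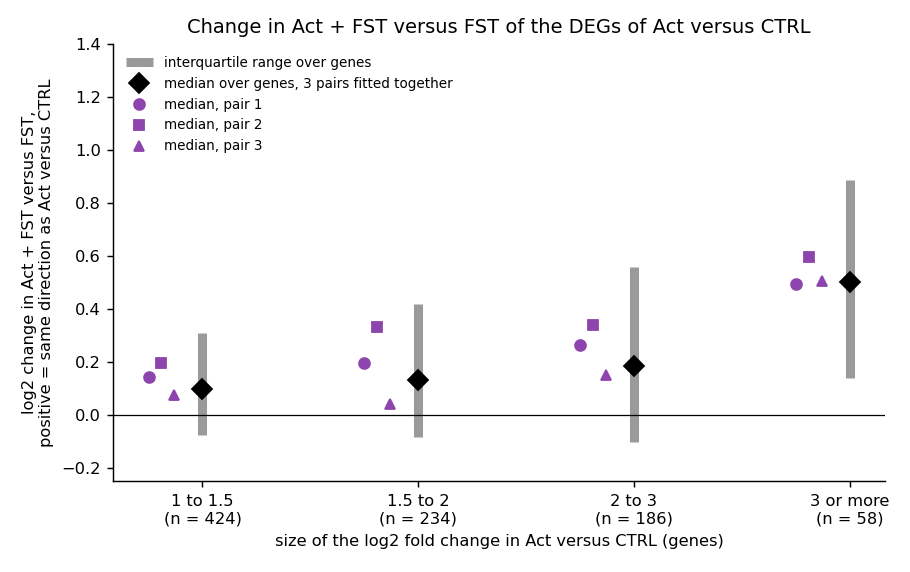
Median log2 change in Act + FST versus FST (y axis, positive in the direction of Act versus CTRL) of the 902 DEGs of Act versus CTRL, by the size of their log2 fold change in Act (x axis), with the fitted median as a diamond, the 3 pairs as purple symbols and the interquartile range over genes as a bar. The median is between 0.099 and 0.184 in the 3 lower classes and 0.501 in the class of 3 or more.

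The genes that rose most in Act, among DEGs that averaged 50 or more over the 12 libraries and whose CTRL and Act libraries did not overlap, were low in both groups that received FST288. Pmepa1, a feedback inhibitor of TGF-β and activin signalling, had counts of 756, 792 and 871 in Act, of 32, 21 and 10 in Act + FST and of 5, 9 and 5 in FST. The latter 2 groups did not overlap, but the log2 fold change of 1.49 had a standard error of 0.39 and an adjusted p of 0.19. Runx3, a transcription factor of the TGF-β response, had 494, 534 and 502 in Act, 56, 23 and 63 in Act + FST and 19, 19 and 15 in FST (1.26, adjusted p = 0.17). F11r, a junctional adhesion molecule, had 412, 420 and 463 in Act, 33, 37 and 45 in Act + FST and 21, 13 and 20 in FST (1.07, adjusted p = 0.17). Minar1 had 15, 22 and 16 in Act + FST and 11, 10 and 10 in FST (0.70, adjusted p = 0.29). In these 4 genes and in Spsb1 each Act + FST library was above each FST library, and none passed the test. Against CTRL, the log2 fold change of Act + FST was 0.02 for Pmepa1, 0.32 for Runx3, 0.60 for F11r, 0.53 for Minar1 and -0.01 for Spsb1. That of FST against CTRL was -1.47, -0.93, -0.47, -0.17 and -0.62 in the same order. Pmepa1 had 14, 50 and 9 in CTRL. Its Act + FST count was above that of CTRL in replicates 1 and 3 and below it in replicate 2. Its mean of 21 in Act + FST lay below the CTRL mean of 24.3 through CTRL replicate 2 alone. That library was also the highest of CTRL for Runx3 (37, 50 and 22), F11r (16, 43 and 22) and Spsb1, but not for Minar1. What set it apart was not tested. The other 3 of the 8 largest rises under that limit, the microglial genes Tmem119 (14, 12 and 8 against 9, 5 and 11) and Olfml3 (15, 8 and 7 against 12, 2 and 3) and the caveolar gene Cav1 (26, 5 and 16 against 18, 6 and 16), overlapped.

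Among the 8 largest falls in Act under the same limit, Cpe, a carboxypeptidase that processes peptide hormones, came closest to the threshold. Its counts were 11, 5 and 7 in Act, 58, 27 and 40 in Act + FST and 92, 65 and 78 in FST, a log2 fold change of -0.95 with an adjusted p of 0.062. Gprc5b, an orphan receptor, had 139, 99 and 77 in Act + FST and 157, 175 and 152 in FST (-0.65, adjusted p = 0.55). Tox2 had 295, 306 and 314 against 358, 356 and 376, and the noncoding Gm10419 had 265, 253 and 284 against 296, 315 and 340. In these 4 genes each Act + FST library was below each FST library. Gm42517, Tslp, Nrcam and Kntc1 overlapped. Kntc1, a kinetochore gene, had 67, 43 and 246 in Act + FST, the last in the library that stood apart in cell cycle genes, and 102, 61 and 90 in FST.

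**Figure D5:**
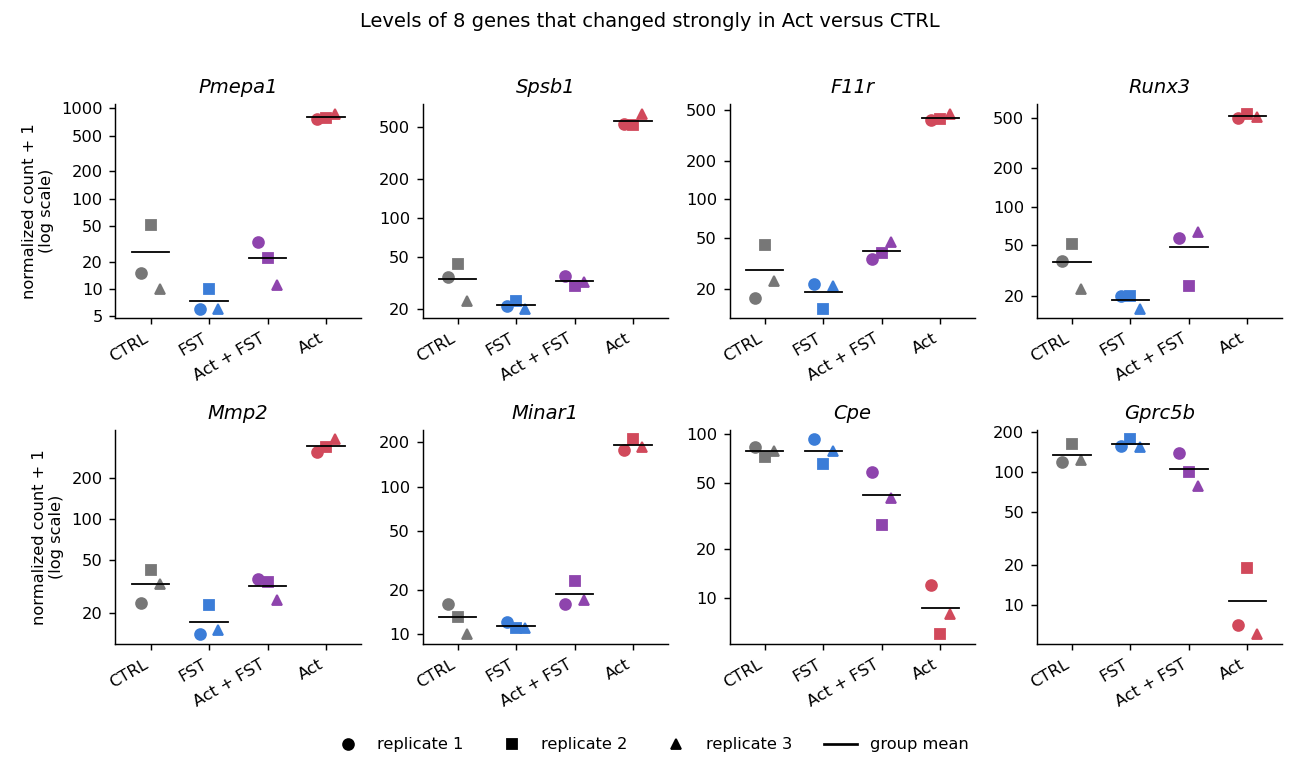
Normalized counts plus 1 (log scale, y axis) of 8 genes with large changes in Act versus CTRL, in the 4 groups (x axis), with 1 point per library and a line at the group mean. The 8 genes were chosen because their Act + FST and FST libraries do not overlap, and the Act libraries lie far from both, as for Pmepa1 with 756 to 871 in Act, 10 to 32 in Act + FST and 5 to 9 in FST. The CTRL libraries of Pmepa1 have 9 to 50.

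Of the 10 genes that the study names from its RNA sequencing, Mmp14 alone was called. The chemokine receptor gene Ccr2 had 765, 537 and 391 in Act + FST and 678, 443 and 294 in FST, higher in each pair, with a log2 fold change of 0.29 and an adjusted p of 0.73. In Act versus CTRL its log2 fold change was 1.04. Fn1, which encodes fibronectin, had 179, 64 and 41 against 175, 90 and 47, with the highest value in replicate 1 and the lowest in replicate 3 of both groups. For Cxcr4 (-0.02), Ccl2 (-0.01), Tgfbr1 (0.03), Pdgfa (0.03) and Itgav (0.02) the difference was small beside that in Act versus CTRL, which was 0.52, -2.06, 0.87, 0.87 and 0.95. Itgb3 differed by -0.13, where it fell by 2.66 in Act versus CTRL. Of these 10 genes, 8 were called higher and 2 lower in Act versus CTRL. The study chose these genes on the same libraries.

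Lists of pathway genes were counted next, beside a median log2 fold change of -0.0016 and shares of 0.217% called and 8.16% with an unadjusted p under 0.05 for all tested genes. Of 20 feedback and target genes of SMAD signalling, 17 were called higher in Act versus CTRL and 0 were called in Act + FST versus FST with limma. The median was -0.03, and 5 had an unadjusted p under 0.05, 2 higher and 3 lower. Pmepa1 and Spsb1 were the 2 members above FST without overlap. The co-repressor genes Skil (612, 468 and 434 against 571, 479 and 421) and Ski (1389, 1420 and 1308 against 1420, 1403 and 1365) and the membrane regulator Ldlrad4 (200, 136 and 144 against 183, 135 and 156) overlapped. Their log2 fold changes were 0.04, -0.03 and 0.01, where Skil and Ldlrad4 had changed by 1.26 and 1.22 in Act versus CTRL. The inhibitory Smad6 had 12, 4 and 6 in Act + FST and 11, 19 and 15 in FST (-1.03, adjusted p = 0.41).

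Of 16 receptor and SMAD genes, 0 were called with limma, 2 had an unadjusted p under 0.05 and the median was -0.03. The activin receptor genes Acvr1b (618, 570 and 587 against 608, 602 and 604), Acvr2a (324, 283 and 257 against 304, 278 and 276) and Acvr2b (85, 75 and 84 against 89, 83 and 80) had overlapping values in both groups, as did Smad3, with 531, 470 and 388 against 484, 464 and 416. Of 12 ligands and binding proteins of the family, 0 were called with limma and 1 had an unadjusted p under 0.05. Inhba, which encodes the activin A subunit, was low in both groups, with 14, 11 and 8 in Act + FST and 15, 10 and 11 in FST.

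Of 36 genes of matrix, metalloproteinases and integrins, 1 rose (Mmp14) and 2 fell (Mmp12 and Itgax), with a median of -0.09, and 14 had an unadjusted p under 0.05, 3 higher and 11 lower. Of 15 inflammatory genes, 1 rose (Marco), the median was 0.07, and 6 had an unadjusted p under 0.05, 5 higher and 1 lower. Saa3, an acute phase gene, had 35, 43 and 39 in Act + FST and 18, 15 and 9 in FST (1.46, adjusted p = 0.12). Acod1, which makes itaconate, had 171, 182 and 159 against 104, 110 and 72 (0.86, adjusted p = 0.25). Clec4e, a receptor for mycobacterial glycolipid, had 492, 533 and 482 against 430, 388 and 347 (0.37, adjusted p = 0.15). These 3 were higher in each Act + FST library than in each FST library, and none passed the test. Of 27 chemokine and receptor genes, 0 were called with limma and 7 had an unadjusted p under 0.05. Cxcl14 had the largest difference (46, 20 and 55 against 26, 4 and 12, with an adjusted p of 0.18).

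Of 18 microglial signature genes, 0 were called with limma and 5 had an unadjusted p under 0.05, where 13 were called higher in Act versus CTRL. The fractalkine receptor gene Cx3cr1 had 233, 112 and 96 in Act + FST and 119, 58 and 29 in FST, higher in each pair but with overlap between the groups (1.20, adjusted p = 0.39). In CTRL it had 205, 502 and 80. Fcrls had 1233, 1306 and 1189 against 1129, 1098 and 999 (0.21, adjusted p = 0.075). Of 12 osteoclast genes, 1 fell (Atp6v0d2), 2 had an unadjusted p under 0.05, and the median was -0.05. The cathepsin gene Ctsk had 57, 56 and 62 in Act + FST and 88, 123 and 102 in FST, lower without overlap, with a log2 fold change of -0.82 and an adjusted p of 0.055. Of 11 MHC class II genes, 15 alternative activation genes, 17 AP-1 and early response genes, 16 lipid handling genes and 22 interferon-stimulated genes, 0 were called with limma. Their medians were -0.07, -0.09, -0.18, -0.09 and 0.12, and 3, 3, 6, 6 and 3 genes had an unadjusted p under 0.05.

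In the AP-1 and the interferon lists every tested member had the same sign, as also in the osteoclast list before quantile normalization. All 17 AP-1 and early response genes had a log2 fold change below 0, also under quantile normalization and recomputed TMM factors, but the medians in the 3 pairs were -0.09, -0.06 and -0.34, and without Act + FST replicate 3 the median was -0.08 with 14 of 17 below 0. All 22 interferon-stimulated genes had one above 0 under the same scalings, but the pairs had medians of -0.01, 0.28 and 0.08, and in pair 1 only 9 of the 22 were above 0. No member of either list passed the test.

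The cell cycle and sterol lists depended on Act + FST replicate 3. Of 24 cell cycle genes, 0 were called with limma, 0 had an unadjusted p under 0.05 and 20 had a log2 fold change above 0, with a median of 0.11, but in pairs 1, 2 and 3 the median was -0.11, -0.16 and 0.77. Without Act + FST replicate 3 the median was -0.22, with 23 of 24 below 0, the direction in which 18 of the 24 were called in Act versus CTRL. Mki67, the proliferation marker, had 1206, 919 and 2121 in Act + FST and 1279, 966 and 1303 in FST. Ccna2, which encodes cyclin A, had 196, 147 and 530 against 231, 199 and 272. Of 21 sterol synthesis and uptake genes, 0 were called with limma, 0 had an unadjusted p under 0.05 and 20 were above 0, with a median of 0.06, which was -0.01 without that library. Their summed level was 15919 in Act + FST replicate 3, 10759 and 10945 in the other Act + FST libraries, and between 10925 and 13556 in FST. What set this library apart was not tested.

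Markers of other cells were compared in the same way. Of 5 monocyte markers, 1 rose (F13a1), and the summed level was between 1207 and 1884 in Act + FST and between 1036 and 1596 in FST. Of 9 neutrophil markers, 0 were called and 0 had an unadjusted p under 0.05, with sums from 1147 to 1797 and from 1226 to 1721. The dendritic cell markers, such as Flt3 and Zbtb46, had sums from 91 to 160 and from 93 to 148, and 0 of the 5 tested were called or had an unadjusted p under 0.05. Stromal markers summed to 26 to 112 in Act + FST and 22 to 132 in FST, the highest in replicate 1 of each group, and T and NK cell, B cell, erythroid and mast cell markers summed to at most 34 in any of the 6 libraries. The megakaryocyte markers, led by Pf4, summed to 287 to 326 and 286 to 354, and 0 of the 2 tested were called. The osteoclast markers summed to 118 to 156 in Act + FST and 174 to 208 in FST, with Ctsk among them. An unadjusted p under 0.05, lower in Act + FST, was found for 1 of 2 megakaryocyte, 2 of 3 B cell and 1 of 2 osteoclast markers tested. In bulk samples, fewer cells of a type and less RNA per cell cannot be told apart.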

How the data were processed

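RNA of BMDMs harvested at day 6 was sequenced in 12 libraries, 3 for each of the CTRL, Act, FST and Act + FST groups, and groups and replicate numbers were taken from the sample labels. Per the labels and the study's methods, the authors prepared libraries with a stranded mRNA kit, sequenced single-end reads, trimmed them with Trimmomatic 0.39, aligned them to mm10 with STAR 2.7.9a, counted reads per gene with featureCounts 2.0.2 (Subread) and normalized with DESeq2 1.30.0. Reads on several genes or positions were left out. The strand setting was not given in the sources used here. The deposited values are a signal unit: counts per gene that the authors divided by a library factor and rounded, from which whole reads were not recovered. Total normalized counts were 5643708 to 5955400 per library, the sequencing depth is unknown, and no counting interval was computed.

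Genes with a mean of at least 5 were tested with limma 3.58.1 (R 4.3.3, empirical Bayes with trend, two-sided) on log2(normalized count + 1), which understates changes of low genes. The model held 4 group means and the replicate number as a block (6 residual degrees of freedom), and p-values were adjusted by Benjamini-Hochberg over 14318 genes. The interaction was the activin A effect without FST288 minus that with it. Genes were called at an adjusted p up to 0.05, and DEGs also changed at least 2-fold. The comparison was planned with same-numbered libraries as pairs. Their deviations from the group means correlated in all 18 pairs (0.157 to 0.481, and 0.361 to 0.481 between Act + FST and FST). Between libraries of different number the correlation reached 0.169 (CTRL 2 with Act 3), above the lowest of the 18. Between Act + FST and FST it was -0.322 to -0.077 for different numbers. Deviations from a group mean cancel out within the group, so positive values for same numbers bring negative ones for different numbers. The negative values are therefore no separate sign that the numbers mark pairs. The labels do not say what a number marks. The scripts were tested on simulated data.

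Named genes were, among called genes that averaged 50 or more and whose groups did not overlap, the 12 largest changes each way, all DEGs of Act + FST versus FST, the 8 largest rises and 8 largest falls in Act versus CTRL, the 10 genes the study names, and members of gene lists, of which some are not reported here. The comparison, the lists and the tests were chosen with earlier results of these data known. Exon lengths and overlaps came from GENCODE for GRCm38 with bedtools 2.31.1 (14309 genes) and promoters from RefSeq GRCm38.p6. Figures were drawn with Python 3.11.15 and matplotlib 3.10.9. Alternatives were another pseudocount, filter, scaling, sample set, fold threshold or no block, and each library left out in turn.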

Additional observations from a re-analysis of the deposited data

Results flagged for a closer look

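The activin A effect without FST288 minus that with FST288 (log2, interaction term of limma) was called for 44 named genes. Their adjusted p-values with limma were between 2.0e-07 and 0.047. The genes considered were the 31 called in Act + FST versus FST and 25 others, named by the size of their change or by the study. Among all tested genes the interaction was called in 16.3%. The count is a description, since genes were chosen for a large change in Act versus CTRL or a call in Act + FST versus FST. Both are terms of the interaction. Among the genes called in Act + FST versus FST that rose, the difference was 1.28 for Mmp14, 0.66 for Mtus1, 0.30 for Ppp1r9a, 0.35 for Il21r, 1.01 for Abi3, 1.35 for Dst, 0.89 for Carmil1 and 1.12 for Fkbp5. Each of these rose in both comparisons, and by less with FST288.

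Among the called genes that fell, the difference was -0.86 for Mmp12, -0.95 for Syn1, -1.76 for F7, -1.35 for Hmga2 and -0.49 for Ak8. It was -0.21 for Sh3bgrl2, -0.66 for Atp6v0d2, -0.83 for Smpd3, -0.73 for Epb41l1, -0.95 for Tanc1 and -1.06 for Emp2. These genes fell in both comparisons, and by less with FST288. Gabbr2 was the exception at 0.99, since its fall was seen with FST288 and its log2 fold change without it was 0.02.

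Of the genes with the largest rises in Act versus CTRL among those that averaged 50 or more, the difference was 3.86 for Pmepa1, 4.13 for Olfml3, 4.33 for Tmem119, 3.48 for Spsb1, 3.00 for F11r, 3.86 for Cav1, 3.19 for Minar1 and 2.59 for Runx3. Of those with the largest falls it was -3.28 for Tox2, -3.01 for Gm10419, -3.19 for Gprc5b, -2.29 for Cpe, -2.99 for Gm42517, -3.15 for Tslp, -2.69 for Nrcam and -3.24 for Kntc1. Of the genes the study names, it was 0.75 for Ccr2, 0.53 for Cxcr4, -2.05 for Ccl2, 0.85 for Tgfbr1, 2.55 for Mmp2, 0.84 for Pdgfa, 0.94 for Itgav and -2.53 for Itgb3.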

How the results depend on the processing

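Without the replicate block, 0 genes in place of 31 were called in Act + FST versus FST, with 0 DEGs, 0 DEGs of Act versus CTRL called the same way, and 398 in place of 637 DEGs of Act versus CTRL with a called interaction. Without the 3 Act libraries, 79 genes were called and 5 were DEGs. Leaving out 1 of the 6 libraries at a time gave 2 to 24 called genes (19, 9 and 24 without Act + FST replicates 1, 2 and 3, and 18, 2 and 4 without FST replicates 1, 2 and 3), 1 to 4 DEGs and 2 to 14 shared calls, and a median change of the Act versus CTRL DEGs from 0.107 to 0.275, the highest without Act + FST replicate 3. Without replicate 1, 2 or 3 in every group, alternatives chosen after seeing the data, there were 6, 1 and 44 called genes, 1, 1 and 5 DEGs and 4, 1 and 26 shared calls, and without replicate 3 the median was 0.233. DEGs of Act + FST versus FST were 1 with a pseudocount of 5, 1 with a mean of at least 50 and 10 at 1.5-fold. With a mean of at least 50, Act versus CTRL had 369 DEGs, 352 of them with a called interaction. Fitted on the 6 libraries alone, 28 genes were called, 17 of them among the 31. The interaction was not computed on those 6 libraries alone. Other pseudocounts, filters and scalings gave 31 to 41 called genes. All 31 genes kept their direction in every alternative fit. It could not change without the block, without the Act libraries or with the 6 libraries alone. The log2 fold changes there are those of the main fit. The causes of the differences between fits were not tested. Depth is unknown, so it cannot be said which low genes it limits.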
